A study of Mus musculus with 6 samples.

Results

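The genes described here are 10 members of the unfolded protein response and the integrated stress response, *Hspa5*, *Hsp90b1*, *Xbp1*, *Atf4*, *Ddit3*, *Trib3*, *Chac1*, *Asns*, *Herpud1* and *Creb3l2*. They were chosen by name, and each was found once among the 41388 genes counted. All 10 were among the 14533 genes tested, which had more than 1 CPM (counts scaled to the library total) in at least 2 samples. RNA-seq was performed on primary joint chondrocytes, the cells of cartilage, taken from the femoral heads of male mice aged 21 days. The labels give the strain as B6/129, and the methods give homozygous *Postn*tm1Jmol/J mice on a B6129SF2/J background. There were 3 samples labelled as periostin knockout (*Postn*-/-) and 3 labelled wild-type (*wt*), untreated and kept for 2 days in culture before RNA was taken. The knockout was made with a targeting vector and is not restricted to cartilage, and *wt* mice were littermates in the study. The comparison asks which transcripts differ between the genotypes at baseline. The methods give 3 mice for each genotype, and the labels do not tie each library to a mouse or culture, so the p-values measure the spread between these samples.

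Chondrocytes secrete large amounts of collagen and proteoglycan, and this cargo is folded in the endoplasmic reticulum (ER). When unfolded protein builds up there, the sensors IRE1, PERK and ATF6 start the unfolded protein response. IRE1 splices *Xbp1* mRNA into the form that encodes an active transcription factor, ATF6 is cut to release another factor, and PERK phosphorylates eIF2α. Phosphorylation of eIF2α, which other kinases also carry out when amino acids are scarce or heme is lacking, lowers general translation and favours translation of *Atf4*, and this is the integrated stress response. Splicing, cleavage, phosphorylation and translation are not read by gene counts, which give only the total transcript of each gene.

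These responses reach their target genes through short promoter elements, which are shown here for the members that carry them. Promoters of 300 bases (250 before to 50 after the RefSeq start, GRCm38.p6) were searched on both strands for 4 elements in all 27025 promoters of the RefSeq set, and all 10 members had an entry. The ER stress response element (ERSE), to which ATF6 and NF-Y bind, was searched as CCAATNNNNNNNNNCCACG and was held by 35 promoters (0.130%), among them *Hspa5* and *Hsp90b1*. The ERSE-II element was searched as ATTGGNCCACG and was held by 10 promoters (0.0370%), among them *Herpud1*. The composite element read by ATF4 with C/EBP factors was searched as TGATGNAA and was held by 1096 promoters (4.06%), among them *Trib3*, *Chac1*, *Asns* and *Herpud1*. The XBP1 element (UPRE) was searched as TGACGTGG and was held by 164 promoters (0.607%) and by 0 members. None of these matches overlapped another. *Xbp1*, *Atf4*, *Ddit3* and *Creb3l2* held none of the 4 letter strings in this window. The following windows give the matches in capitals, 5′ to 3′ on the strand of the gene.
*Hspa5*, ERSE, chr2:34772020-34772048 plus strand: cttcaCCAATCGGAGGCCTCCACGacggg
*Hsp90b1*, ERSE, chr10:86705626-86705668 minus strand: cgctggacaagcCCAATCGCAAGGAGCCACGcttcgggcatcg
*Hsp90b1*, ERSE reversed, chr10:86705521-86705563 minus strand: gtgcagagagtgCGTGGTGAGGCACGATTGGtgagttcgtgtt
*Herpud1*, ERSE-II, chr8:94386365-94386399 plus strand: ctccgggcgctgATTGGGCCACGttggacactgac
*Herpud1*, ATF4 element reversed, chr8:94386305-94386336 plus strand: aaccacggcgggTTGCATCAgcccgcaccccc
*Chac1*, ATF4 element reversed, chr2:119351037-119351068 plus strand: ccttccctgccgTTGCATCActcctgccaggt
*Asns*, ATF4 element, chr6:7693220-7693237 minus strand: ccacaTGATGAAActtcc
Counted from the RefSeq start, the *Hspa5* element lay at −65 to −47, those of *Hsp90b1* at −212 to −194 and −107 to −89, and the ERSE-II of *Herpud1* at −52 to −42. The *Asns* element lay at −23 to −16. The printed windows of *Hspa5* and *Asns* lie before the RefSeq start but inside the GENCODE gene span of these genes, which starts further out, and may be transcribed. The windows of *Hsp90b1*, *Herpud1* and *Chac1* lie outside the gene span. The *Trib3* match lay after the RefSeq start, at 14 to 21, and is not printed.

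The libraries held 20587640 to 26572260 counts, and a member was counted with 16348 (*Creb3l2*) to 469078 (*Hspa5*) reads over the 6 libraries, with 2304 reads as the lowest count in 1 library. The targeted gene *Postn* had a normalized CPM of 4.66, 4.27 and 5.67 in *Postn*-/- against 10.1, 10.3 and 6.90 in *wt*. Each *Postn*-/- value lay below each *wt* value (log2 fold change −0.91, SE 0.22, adjusted p = 0.717 by the quasi-likelihood test of edgeR, Benjamini-Hochberg adjusted over all genes tested), and reads of the gene were left in the knockout. For the protein, the paper reports no staining in knockout joint sections and negligible levels in knockout serum. Gene counts do not read protein. Of the chondrocyte markers, 12 of 12 were above 1 CPM in all 6 samples, with a summed level of 35531 to 47322 CPM in *Postn*-/- and 30053 to 43343 in *wt*. The cartilage collagen gene *Col2a1*, a major secreted cargo, had 15767, 13696 and 18081 CPM in *Postn*-/- against 8271, 11867 and 9567 in *wt*, with the genotypes apart (log2 fold change 0.68, SE 0.21, unadjusted p = 0.0125 and adjusted p = 0.717, edgeR). Another of the 12 markers, *Cnmd*, lay apart the other way, at 4693, 3542 and 4702 CPM in *Postn*-/- against 5071, 4968 and 5781 in *wt*. For the remaining markers the genotypes overlapped. Of these, *Matn1*, *Col11a1* and *Hapln1* had the lower mean in *Postn*-/- and the rest the higher. *wt* replicate 1 was the lowest of the 6 samples for *Col2a1*, *Acan*, *Sox9*, *Col9a1*, *Col9a2*, *Col11a2* and *Comp*. It was not the lowest for *Col11a1*, *Matn1*, *Matn3*, *Hapln1* or *Cnmd*. Of the 6 hypertrophic chondrocyte markers, among them *Col10a1*, it was the lowest for all but *Mmp13*. This sample stood apart on the first principal component of all genes, at 47.7 against −17.4 to −0.0175 for the other 5. Its part in the results was not tested beyond leaving it out, and without it 8 of the 10 members were below 0 and for none did the genotypes lie apart, beside 22.3% of all genes. Markers of fibroblasts (5 of 6 above 1 CPM in all samples) summed to 1155 to 2857 CPM in *Postn*-/- and 1423 to 4140 in *wt*, osteoclast markers (2 of 4) to 346 to 457 and 315 to 416, and blood and immune markers (4 of 6) to 28.1 to 47.3 and 18.5 to 32.1. Hypertrophic chondrocyte markers (6 of 6) summed to 2125 to 6543 CPM in *Postn*-/- and 1288 to 6303 in *wt*, endothelial markers (1 of 4) to 5.34 to 8.39 and 3.69 to 7.62, and muscle markers (3 of 4) to 7.35 to 10.01 and 9.07 to 22.1. *Thy1*, *Calcr*, *Ocstamp*, *Hba-a1*, *Hbb-bs*, *Cdh5* and *Ckm* were below 1 CPM in all 6 samples, and none of the markers was at 0 in all 6. In these bulk samples fewer cells of a type and less RNA per cell cannot be told apart. The part of other cell types in the values below was not tested.

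No member differed between the genotypes by the test. Of the 10 members, 0 reached an adjusted p of 0.05 or less with edgeR, beside 2 of 14533 genes (0.0138%), and 0 had an unadjusted p of at most 0.05, beside 916 genes (6.30%). DESeq2's Wald test called 0 members by either p, beside 11 of the 12841 genes it gave an adjusted p (0.0857%) and 873 by the unadjusted p (6.01%). By voomWithQualityWeights of limma 0 members were called, beside 1 gene by the adjusted p (0.00688%) and 1337 by the unadjusted p (9.20%). For no member did the 3 *Postn*-/- values all lie above or all below the 3 *wt* values, which was the case for 1977 genes (13.6%), 1022 of them above (7.03%) and 955 below (6.57%). Among the 1583 genes with a mean CPM between the lowest and the highest member, 57 lay apart above (3.60%) and 205 apart below (13.0%). At those levels 1011 of the 1583 genes had an estimate below 0, and 9 of the 10 members did, with *Xbp1* above. The median log2 fold change was −0.13 over the members, −0.06 over the genes at their levels and 0.0042 over all genes. Over 15 alternative settings 7 to 9 members were below 0.

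**Figure D1:**
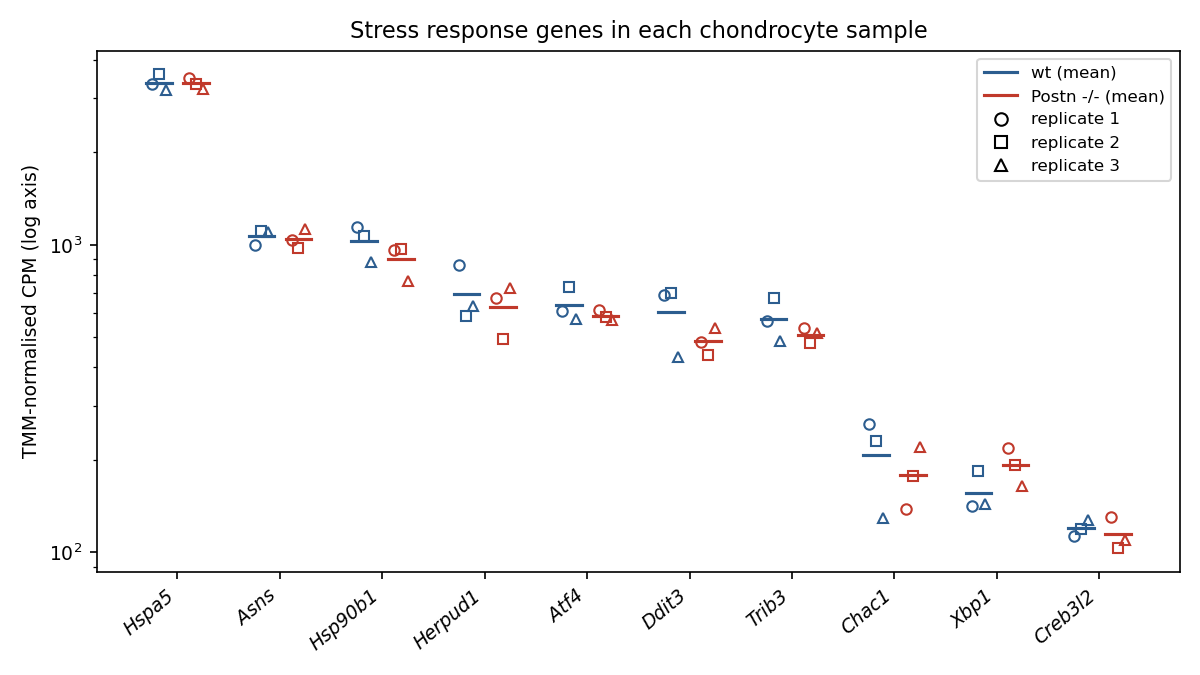
TMM-normalized CPM (log axis) of the 10 genes in each sample, with *wt* in blue, *Postn*-/- in red, a symbol for each replicate number and a bar at the mean of 3. For every gene the red and blue points overlap, and *Hspa5*, at about 3360 CPM, stands above the other 9.

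Levels were compared between genes as normalized CPM per kilobase of exon length, as a mean over the 6 samples. *Hspa5*, which encodes the ER chaperone BiP that also holds the sensors inactive, was highest at 956 CPM per kb, and 99.8% of the tested genes were lower. *Asns* followed at 387, *Atf4* at 356, *Ddit3* at 319, *Herpud1* at 283, *Trib3* at 255 and *Hsp90b1* at 239.5 CPM per kb. These 6 genes formed a group in which the sample range of each overlapped that of the next, and the higher gene of each neighbouring pair was above the lower in 4 or 5 of the 6 samples. *Chac1* at 118 CPM per kb, *Xbp1* at 53.6 and *Creb3l2* at 16.1 each lay below the gene before them in all 6 samples, with ranges that did not overlap. Even *Creb3l2* was above 77.7% of the tested genes on this scale, so all 10 transcripts lay above the median gene in level.

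Among the chaperones and ER quality control genes, *Hspa5* (ENSMUSG00000026864, chr2:34771970-34776531, plus strand, GRCm38) had normalized CPM of 3492, 3337 and 3216 in *Postn*-/- and of 3343, 3583 and 3188 in *wt*. Its samples were the closest of any member, the highest being 1.12 times the lowest, and both genotypes covered nearly the same range. The means were 3348 ± 138 and 3371 ± 199 (SD, n = 3 each) and the log2 fold change, *Postn*-/- over *wt*, was −0.01 (SE 0.13, adjusted p = 0.990, edgeR). The 95% interval of the fold ran from 0.800 to 1.23, so a difference within it is not excluded by these samples. The interval is not a limit of detection. *Hsp90b1* (ENSMUSG00000020048, chr10:86690209-86705509, minus strand), which encodes the ER paralog of HSP90 (GRP94) and has 2 ERSE matches, had 965, 973 and 760 CPM in *Postn*-/- against 1147, 1071 and 878 in *wt*. The *wt* sample of replicate 3 lay among the *Postn*-/- values, while the other two *wt* samples lay above them all. The log2 fold change was −0.20 (SE 0.16, 95% interval −0.56 to 0.16, adjusted p = 0.764, edgeR). *Hsp90b1* shares 15.7% of its exon bases with other annotated genes on either strand, and whether counting used strand is not stated, so reads of these bases may have been dropped or assigned elsewhere.

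*Herpud1* (ENSMUSG00000031770, chr8:94386438-94395377, plus strand), a membrane protein of ER-associated degradation that delivers misfolded proteins to the proteasome, had 671, 493 and 723 CPM in *Postn*-/- against 857, 587 and 632 in *wt*. Each genotype had one sample that stood off, with *wt* replicate 1 highest and *Postn*-/- replicate 2 lowest, and the remaining 4 values lay between 587 and 723. The log2 fold change was −0.14 (SE 0.20, 95% interval −0.59 to 0.32, adjusted p = 0.865, edgeR). *Xbp1* (ENSMUSG00000020484, chr11:5520659-5525893, plus strand), whose mRNA is the substrate of IRE1, had 218, 193 and 165 CPM in *Postn*-/- against 142, 185 and 143 in *wt*. It was the sole member with the higher mean in *Postn*-/-, and *wt* replicate 2 was the value that fell inside the *Postn*-/- range. The means were 192 ± 26.5 and 157 ± 24.3 (SD, n = 3 each), and the log2 fold change was 0.29 (SE 0.15, 95% interval −0.05 to 0.64, unadjusted p = 0.0870 and adjusted p = 0.717, edgeR). Without *wt* replicate 2 the estimate was 0.43 (unadjusted p = 0.0198, adjusted p = 0.567, edgeR), and without *Postn*-/- replicate 3 it was 0.39 (unadjusted p = 0.0442, adjusted p = 0.983, edgeR). It was 0.19 without *Postn*-/- replicate 1 and 0.23 without *wt* replicate 1 or *wt* replicate 3, and over the 15 alternatives its adjusted p was 0.431 to 0.983.

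Among the genes of the integrated stress response, *Atf4* (ENSMUSG00000042406, chr15:80255184-80257540, plus strand), the transcription factor at its centre, had 616, 583 and 569 CPM in *Postn*-/- against 612, 729 and 574 in *wt*. Apart from *wt* replicate 2, the values of both genotypes lay within 569 to 616. The log2 fold change was −0.12 (SE 0.13, 95% interval −0.41 to 0.18, adjusted p = 0.825, edgeR). *Ddit3* (ENSMUSG00000025408, chr10:127290774-127296288, plus strand), which encodes the pro-apoptotic factor CHOP, had 482, 440 and 536 CPM in *Postn*-/- against 687, 697 and 433 in *wt*. The first 2 *wt* samples were above every *Postn*-/- sample and the third was below them all. The means were 486 ± 47.9 and 606 ± 150 (SD, n = 3 each), with a log2 fold change of −0.32 (SE 0.19, unadjusted p = 0.140 and adjusted p = 0.724, edgeR). That is the largest estimate of the 10 in size in this fit, but *Xbp1* had the larger one in 7 of the 15 alternatives, among them voomWithQualityWeights, where *Ddit3* was at −0.07 and *Xbp1* at 0.29. The 95% interval of the *Ddit3* fold was 0.588 to 1.09. *Ddit3* shares 4.73% of its exon bases with *Gm4189* and *Mars* on the opposite strand.

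*Trib3* (ENSMUSG00000032715, chr2:152337422-152344032, minus strand), a pseudokinase induced by ATF4 and CHOP, had 537, 480 and 517 CPM in *Postn*-/- against 565, 671 and 488 in *wt*. The log2 fold change was −0.17 (SE 0.14, 95% interval −0.49 to 0.16, adjusted p = 0.770, edgeR). Here too *wt* replicate 3 lay within the *Postn*-/- range and the other *wt* samples above it. *Chac1* (ENSMUSG00000027313, chr2:119351229-119354381, plus strand), which encodes a glutathione-degrading enzyme and is an ATF4 target, had 138, 178 and 220 CPM in *Postn*-/- against 262, 230 and 130 in *wt*. It varied most of the members, its highest sample being 2.02 times its lowest, and its extremes were both *wt* samples. The log2 fold change of −0.21 had the widest interval of the members (SE 0.27, 95% interval −0.84 to 0.41, adjusted p = 0.844, edgeR). *Asns* (ENSMUSG00000029752, chr6:7675169-7693254, minus strand), asparagine synthetase, which answers to amino acid shortage through its ATF4 element, had 1039, 980 and 1125 CPM in *Postn*-/- against 1001, 1107 and 1104 in *wt*. Its spread was nearly as small as that of *Hspa5*, with a log2 fold change of −0.03 (SE 0.12, 95% interval −0.31 to 0.25, adjusted p = 0.953, edgeR). Of the members with an ATF4 element match, the SD of log2 CPM over the 6 samples was 0.08 for *Asns*, 0.18 for *Trib3*, 0.27 for *Herpud1* and 0.41 for *Chac1*. Whether the match bears on this spread was not tested.

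*Creb3l2* (ENSMUSG00000038648, chr6:37327255-37442146, minus strand) encodes an ER membrane factor of the CREB3 family that is cut like ATF6 and serves secretion of cartilage matrix. It had 131, 103 and 110 CPM in *Postn*-/- against 113, 120 and 128 in *wt*. *Postn*-/- replicate 1 was the highest of all 6 samples, and the other two *Postn*-/- samples were the lowest. The log2 fold change was −0.07 (SE 0.12, 95% interval −0.34 to 0.21, adjusted p = 0.892, edgeR).

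**Figure D2:**
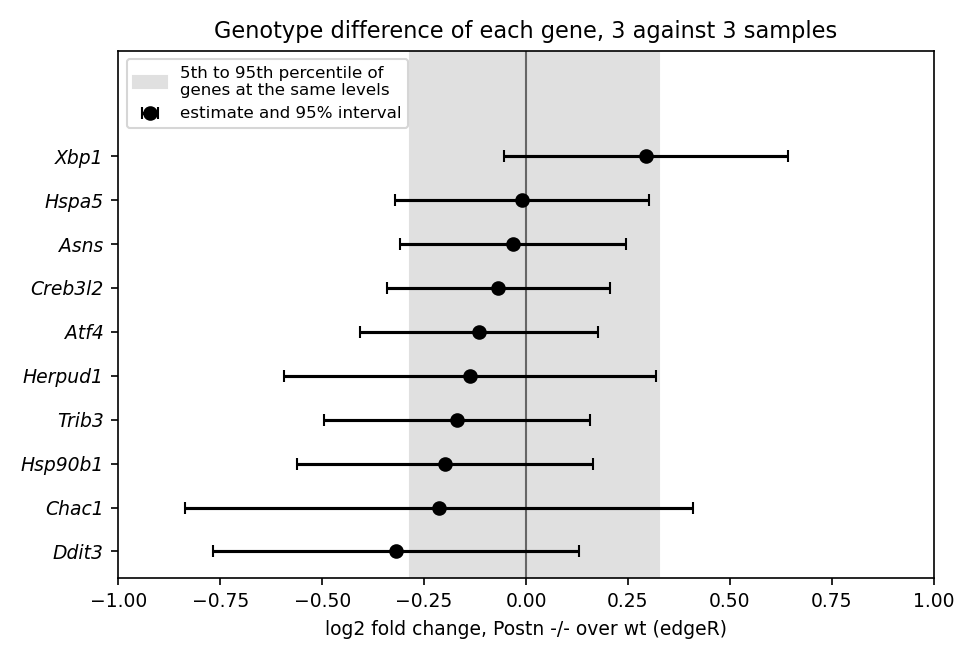
Log2 fold change of each gene, *Postn*-/- over *wt*, with its 95% interval from edgeR (3 samples against 3), beside the 5th to 95th percentile of the 1583 genes at the same levels (grey, −0.28 to 0.33). Every interval covers 0, and only the *Ddit3* estimate of −0.32 lies outside the grey band.

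*wt* replicate 3 was the lowest *wt* sample for 6 of the 10 members and the lowest of all 6 samples for *Hspa5*, *Ddit3* and *Chac1*. *wt* replicate 2 was the highest of all for 4 members and *wt* replicate 1 for 3, while *Postn*-/- replicate 2 was the lowest of all for 4. Summed over the members, the normalized CPM was 8289, 7759 and 7940 in *Postn*-/- and 8729, 8980 and 7696 in *wt*, so 2 *wt* samples were above and the third below every *Postn*-/- sample. Without *wt* replicate 3, 4 members lay wholly lower in *Postn*-/- (*Hsp90b1*, *Ddit3*, *Trib3* and *Chac1*), beside 24.6% of all genes that lay apart in either direction in that comparison of 3 samples with 2. The *Ddit3* estimate was then −0.51 (SE 0.14, unadjusted p = 0.0100, adjusted p = 0.724, edgeR), that of *Chac1* −0.46, of *Hsp90b1* −0.30 and of *Trib3* −0.28, and none passed the adjusted threshold. Other omissions moved these estimates in either direction. Without *Postn*-/- replicate 3 *Chac1* was at −0.39 and *Ddit3* at −0.40. *Ddit3* was at −0.20 without *wt* replicate 2, *Chac1* at −0.01 without *wt* replicate 1 and −0.06 without *Postn*-/- replicate 1, *Hsp90b1* at −0.09 without *Postn*-/- replicate 3 and *Trib3* at −0.04 without *wt* replicate 2. All 10 members moved by over 1.5 times on some omission, *Atf4* running from −0.19 to −0.01, *Creb3l2* from −0.17 to −0.00 and *Herpud1* from −0.25 to 0.05. Over the alternatives the adjusted p of *Ddit3* was 0.533 to 0.983.

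**Figure D3:**
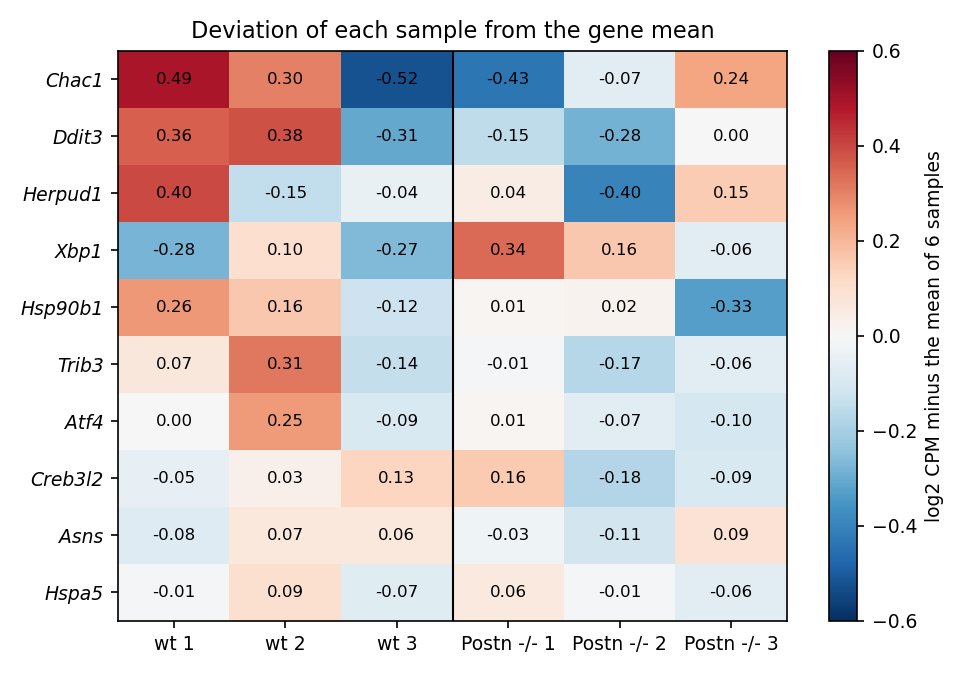
Log2 CPM of each gene in each sample minus the mean of the gene over the 6 samples, with *wt* samples left of the black line and genes ordered by their spread. The *wt* 3 column is below 0 for 8 of 10 genes, and *Chac1*, *Ddit3* and *Herpud1* at the top carry the widest deviations.

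The members were compared with each other over the 6 samples by the root mean square difference of their gene-centred log2 CPM, a description for which the 6 samples share the libraries. The closest pair was *Atf4* and *Trib3* at 0.0622, followed by *Hspa5* and *Atf4* at 0.0746 and *Hspa5* and *Asns* at 0.104. *Atf4* stood at 0.132 from *Asns*, 0.214 from *Ddit3* and 0.352 from *Chac1*. The most distant pair was *Xbp1* and *Chac1* at 0.490. Among 12493 other genes, those closest to *Herpud1* were *Cdip1* (0.0403), *Acox2* (0.0497) and *Gal3st1* (0.0508), beside a median of 0.315 over the genes. The closest to *Ddit3* were *2810414N06Rik* (0.0675), *1700028J19Rik* (0.0741) and *Trub2* (0.0907), beside a median of 0.343. The closest to *Chac1* were *Zrsr1* (0.135), *Nectin1* (0.136) and *Mettl18* (0.137), beside a median of 0.428.

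The other genes of these pathways were taken as 9 lists with 145 genes, of which 141 were tested. Of these, 63 had an estimate above 0 and 78 below, the median log2 fold change was −0.04, and none passed the adjusted threshold, the smallest adjusted p being 0.717 (edgeR). At an unadjusted p of at most 0.05 there were 7 of 141, with 5 higher and 2 lower in *Postn*-/-, beside 6.30% of all genes (574 higher, 342 lower). The genotypes lay apart for 8 genes above and 8 below, beside 7.03% and 6.57% of all genes and 3.60% and 13.0% of those at the levels of the 10 members. *Ern2*, *Derl3*, *Hspa1a* and *Hspa1b* were too low to test, with 4 to 25 reads a sample.

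Of the ER stress sensors and the proteases that cut them, 4 of 6 were above 0 (median 0.12), and for none did the genotypes lie apart. *Ern1*, which encodes the sensor IRE1α, had 50.0 ± 3.77 CPM in *Postn*-/- against 41.4 ± 9.84 in *wt*. *Eif2ak3*, which encodes PERK, was at 14.3 ± 1.09 and 12.9 ± 1.05, and *Atf6b*, the paralog of the sensor *Atf6*, at 46.5 ± 6.14 and 37.3 ± 6.14 (SD, n = 3 each). Of the eIF2 kinases, phosphatase subunits and regulators, 10 of 17 were above 0 (median 0.05). *Atf5*, a factor translated in the way of *Atf4*, had 60.9, 58.4 and 55.3 CPM in *Postn*-/- against 36.7, 57.0 and 39.1 in *wt* (log2 fold change 0.40, SE 0.17, unadjusted p = 0.0499 and adjusted p = 0.717, edgeR). *Fgf21*, a secreted stress hormone and ATF4 target, had the lowest estimate of the 141 genes, −1.06 (SE 0.47, adjusted p = 0.717, edgeR). That value rested on *wt* replicate 1 at 49.4 CPM, since the other two *wt* samples were at 18.1 and 12.4 and the *Postn*-/- samples at 10.2 to 15.2, and over the alternatives it reached as little as −0.26. *Bbc3*, which encodes the apoptosis factor PUMA, was at 2.49 ± 0.758 and 1.60 ± 0.365 CPM.

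ATF4 targets of amino acid and one-carbon supply were above 0 for 8 of 21 (median −0.05). The neutral amino acid transporter genes *Slc1a4* and *Slc1a5* were at 96.4 ± 11.5 and 427 ± 118 CPM in *Postn*-/- against 74.6 ± 10.2 and 307 ± 53.9 in *wt*, with log2 fold changes of 0.37 (SE 0.14, unadjusted p = 0.0293, edgeR) and 0.47 (SE 0.23, unadjusted p = 0.0697, edgeR). A further transporter gene, *Slc38a2*, was at 484 ± 55.9 and 414 ± 20.0 CPM with the genotypes apart. Of the cytosolic aminoacyl-tRNA synthetases, 5 of 12 were above 0 (median −0.04). *Mars*, for methionine, had 133, 143 and 137 CPM in *Postn*-/- against 103, 128 and 114 in *wt* (log2 fold change 0.26, SE 0.11, unadjusted p = 0.0469, edgeR). *Mars* is one of the 2 genes that overlap *Ddit3* on the opposite strand, which together share 4.73% of the exon bases of *Ddit3*. The estimates of *Mars* and *Ddit3* had opposite signs, and whether the shared bases bear on this was not tested. *Gars*, for glycine, had an estimate of 0.26 (SE 0.19) and *Tars*, for threonine, of −0.13 (SE 0.10).

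Of the ER chaperones and folding enzymes, 11 of 27 were above 0 (median −0.04), and the genotypes lay apart for *Dnajb9*, *Dnajb11* and *Txndc11*, all higher in *Postn*-/- (3 of 27, beside 7.03% of all genes and 3.60% of those at the levels of the 10 members). *Dnajb11*, which encodes a J-domain co-chaperone of BiP, had 145, 150 and 142 CPM in *Postn*-/- against 106, 124 and 111 in *wt*. It had the smallest unadjusted p of these lists (log2 fold change 0.36, SE 0.10, unadjusted p = 0.00760 and adjusted p = 0.717, edgeR), while the chaperone it serves, *Hspa5*, was at −0.01. *Dnajb9*, another BiP co-chaperone, was at 59.6 ± 0.786 and 48.6 ± 7.81 CPM (log2 fold change 0.29), and the prolyl isomerase gene *Fkbp2* at 63.4 ± 11.0 and 82.2 ± 15.0 (log2 fold change −0.37). Of the genes of ER-associated degradation, 11 of 18 were above 0 (median 0.04). *Os9*, the lectin that reads the glycans of misfolded proteins, was at 308 ± 41.1 and 260 ± 4.60 CPM with the genotypes apart. *Derl2*, also with the genotypes apart, lay the other way, at 148 and 154 CPM on average (log2 fold change −0.06). *Selenos* and *Derl1*, of the membrane complex, had estimates of −0.15 and 0.14.

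The list of the CREB3 family and ER-to-Golgi transport, to which *Creb3l2* belongs by function, had the lowest median of the 9 lists, −0.16, with 18 of 22 genes below 0, beside 1011 of the 1583 genes at the levels of the 10 members. For 6 genes every *Postn*-/- value lay below every *wt* value, against 0 above, beside 6.57% of all tested genes and 13.0% of those at the levels of the 10 members. *Ssr1*, a subunit of the translocon-associated complex, had 1282, 1156 and 1141 CPM in *Postn*-/- against 1445, 1380 and 1628 in *wt* (log2 fold change −0.32, SE 0.13, unadjusted p = 0.0399 and adjusted p = 0.717, edgeR). *Sec61a1*, which encodes the channel through which new proteins enter the ER, had 1275, 1206 and 992 CPM in *Postn*-/- against 1600, 1458 and 1277 in *wt* (log2 fold change −0.32, SE 0.15, unadjusted p = 0.0672, edgeR). *Sec23a*, a COPII coat gene needed for collagen export in cartilage, had 519, 478 and 499 CPM in *Postn*-/- against 642, 564 and 554 in *wt* (log2 fold change −0.24, SE 0.11, unadjusted p = 0.0700, edgeR). The other genes with separate genotypes were the COPII genes *Sec24c* (−0.16) and *Sec31a* (−0.17) and the translocon-associated gene *Ssr3* (−0.26). Of the CREB3 factors in the list, *Creb3* was at −0.25 and *Creb3l3* at −0.44, while *Creb3l1* was at 0.09 and *Creb3l4* at 0.21. For these factors the genotypes overlapped, and *Creb3l3* and *Creb3l4* had means of only 1.57 and 1.71 CPM. *Ssr1* was the sole gene of the 22 with an unadjusted p of at most 0.05 (edgeR), beside 6.30% of all genes. Over the 15 alternatives 0 to 6 of the 22 had such a p. The 6 came from voomWithQualityWeights with surrogate variables, the kind of model the study used. By that model 1882 of 14533 genes had such a p, against 916 by edgeR. The number of the 22 genes below 0 was 17 to 20 over the 15 alternatives.

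Outside the ER, 6 of 10 cytosolic heat shock genes were above 0 (median 0.11). *Bag3*, a co-chaperone of HSP70 in selective autophagy, had 177, 174 and 156 CPM in *Postn*-/- against 134, 128 and 146 in *wt* (log2 fold change 0.31, SE 0.10, unadjusted p = 0.0180, edgeR). *Hsph1*, of the HSP110 family, had an estimate of 0.29 (SE 0.13) with overlapping genotypes, and *Hspb1*, a small heat shock gene, was at 2.58 ± 0.896 and 1.63 ± 0.253 CPM. Of the mitochondrial chaperones and proteases, 4 of 8 were above 0 (median 0.03). *Hspe1*, the lid of the matrix chaperonin, had 79.6, 92.2 and 72.8 CPM in *Postn*-/- against 101, 111 and 94.8 in *wt* (log2 fold change −0.33, SE 0.12, unadjusted p = 0.0273, edgeR). *Dnaja3* and *Hspa9*, the matrix HSP40 and HSP70, had estimates of 0.23 (SE 0.11) and 0.22 (SE 0.14). No gene of these lists passed the adjusted threshold. Leaving out 1 library moved the estimate of 15 of the 27 genes named from the lists by over 1.5 times. Without *wt* replicate 1 *Gars* was at 0.06, *Ern1* at 0.11, *Hspa9* at 0.11 and *Selenos* at −0.06. Without *Postn*-/- replicate 1 *Derl1* was at 0.03, *Os9* at 0.14, *Slc38a2* at 0.13, *Slc1a5* at 0.29 and *Bbc3* at 0.38. Without *Postn*-/- replicate 3 *Fkbp2* was at −0.24 and *Hspb1* at 0.37, without *Postn*-/- replicate 2 *Hsph1* was at 0.18, without *wt* replicate 3 *Dnajb9* was at 0.19, and without *wt* replicate 2 *Atf5* was at 0.62, *Ern1* at 0.46 and *Gars* at 0.43.

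**Figure D4:**
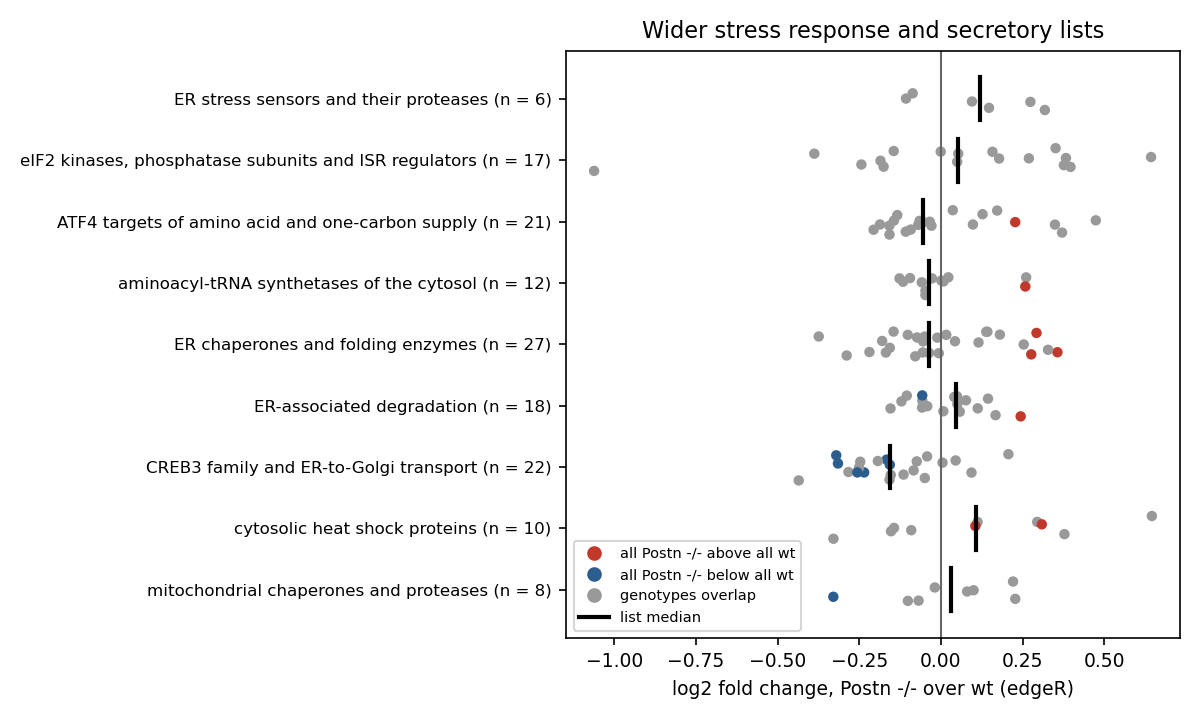
Log2 fold change, *Postn*-/- over *wt*, of the tested genes of each of the 9 lists (n beside the name), with red or blue for genes whose genotypes do not overlap and a black bar at the list median. The ER-to-Golgi list lies furthest left, with a median of −0.16 and 6 blue points, and the grey point at −1.06 is *Fgf21*.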

How the data were processed

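RNA-seq of 6 libraries was analysed. The authors made cDNA with the SMARTer kit, mapped single-end reads of 50 bases to an Ensembl mouse release by STAR (2.0.4b) and had featureCounts (1.4.5) assign the uniquely placed ones to genes. The deposited count is raw. The authors also deposited CPM and RPKM, which were checked against the counts and not otherwise used. The labels name mm9, but the coordinates in the files match GRCm38. Symbols came from GENCODE M21 (40340 of 41388 identifiers matched). Of all pairs of libraries, none was a repeat (chi-square per degree of freedom 31.2 to 96.6).

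After 355 rRNA genes were left out, the genotypes (3 *Postn*-/-, 3 *wt*) were compared by the quasi-likelihood test of edgeR 4.0.16 (R 4.3.3) after TMM normalization, with Benjamini-Hochberg adjustment over 14533 genes and a threshold of 0.05. Standard errors are the size of the log2 fold change divided by √F, and 95% intervals use the t distribution of the fit. Tests were tried on simulated data. Named genes were all members, *Postn*, the 3 smallest unadjusted p per list, and the 3 genes closest to each of the 3 most variable members. *Sec24c*, *Sec31a*, *Ssr3*, *Creb3*, *Creb3l1*, *Creb3l3*, *Creb3l4*, *Txndc11*, *Derl2*, *Col2a1* and the other chondrocyte markers given singly were named after their values were seen. Members and lists were chosen with earlier results of these data known. Alternatives were limma 3.58.1 (voomWithQualityWeights, also with sva 3.50.0), DESeq2 1.42.0, other scalings and filters, a robust fit, the replicate block and leaving out each sample.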

Additional observations from a re-analysis of the deposited data

How the results depend on the processing

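No alternative gave a member an adjusted p of at most 0.05. The number of genes called over all genes, 2 by edgeR, was 1 with upper quartile normalization, 9 with no filter on low counts (34295 genes tested), 11 by DESeq2's Wald test, 1 by voomWithQualityWeights, 3 by the same with surrogate variables (1882 by the unadjusted p, against 916 by edgeR) and 1 to 2 on leaving out 1 library. It was 0 among the 12494 genes above 1 CPM in all 6 samples, where 806 had an unadjusted p of at most 0.05 (edgeR). With the replicate number as a block it was 1. Same-numbered samples correlated at 0.0824 to 0.155 in their deviations from the genotype mean, each best with its own number. These deviations sum to 0 within each genotype, so the correlations depend on one another. They cannot decide whether the samples are paired, and the design does not say. On leaving out 1 library, 0 to 1 members had an unadjusted p of at most 0.05 (edgeR). This was *Xbp1* without *Postn*-/- replicate 3, beside 425 of 14259 genes, and without *wt* replicate 2, beside 1257 of 14427. It was *Ddit3* without *wt* replicate 3, beside 878 of 14309 genes. On these omissions 0 to 4 members had genotypes apart, the 4 being without *wt* replicate 3, beside 19.3% to 27.2% of all genes. Of 150 member estimates under alternatives 141 kept their sign. *Hspa5* was at 0.0071 with upper quartile normalization, 0.0039 above 1 CPM in all samples, 0.0090 by voomWithQualityWeights and −0.0505 to 0.0364 on leaving out 1 library. *Chac1* was at 0.15 by voomWithQualityWeights. On leaving out 1 library *Asns* ran from −0.0866 to 0.0146 and *Herpud1* from −0.25 to 0.0454. The cause was not tested. The lowest single count of a member was 2304 reads.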
